A study of Mus musculus with 4 samples.

Results

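Genes that tie an epidermal Langerhans cell to its neighbours, or mark it, were followed in Langerhans cells that lack the aryl hydrocarbon receptor (AhR). AhR is a ligand-activated transcription factor. Members were the cadherin-catenin complex (Cdh1, Ctnnb1, Ctnna1, Ctnnd1 and Jup), the adhesion molecule Epcam, the claudins Cldn1 and Cldn7, and the surface glycoprotein Cd24a. They were taken as every probe set that the platform annotation gives to 1 of these genes alone. This gave 18 probe sets for 9 genes, out of 22626 probe sets tested and 12393 genes with a symbol of their own. All 18 entered the comparison, since no filter on dim signals was applied.

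The AhR-deficient mice lack exon 2 of the Ahr gene, and the wild-type mice were C57BL/6. There were 2 arrays per genotype, which the labels name biological replicates without giving the number or age of the mice behind each. Cells of both genotypes came from the ear epidermis of untreated mice, spent 16 hours in culture, and were sorted alive by surface MHC class II, with over 95% purity. Part of the label text has the culture done on epidermal sheets and part of it on dispersed cells. The fraction that entered the sort held 20 to 35% Langerhans cells.

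Langerhans cells sit among keratinocytes and are held there largely by E-cadherin, the product of Cdh1, which binds E-cadherin on the neighbouring cell and is tied to the actin skeleton through catenins. When Langerhans cells mature, in the skin or in culture, they are known to lose E-cadherin from their surface, leave the epidermis and migrate to lymph nodes. Epcam marks Langerhans cells among the dendritic cells of mouse skin and is known to bind claudins at cell contacts, and claudin 1 takes part in the tight junctions that Langerhans cell dendrites form with keratinocytes.

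Ahr itself had a log2 signal of 8.55 and 8.60 in AhR-deficient cells, against 7.61 and 8.23 in wild-type cells, but the annotation does not place its probe sets relative to exon 2, so this signal does not check the genotype labels. The known AhR target Ahrr had 5.32 and 5.09 in AhR-deficient cells, against 8.26 and 8.38 in wild-type cells (limma, adjusted p = 0.0403). Of 14 Langerhans and dendritic cell markers, 0 lay below the 25th percentile of all values (4.55) on all 4 arrays, and langerin (Cd207) had 11.2082 and 11.7126 in AhR-deficient cells, against 10.9995 and 12.0571 in wild-type cells. The log2 signal at the 3′ end minus that at the 5′ end of the Actb control was 2.34 and 2.61 in AhR-deficient cells, against 3.16 and 2.65 in wild-type cells. For the Gapdh control it was 2.24 and 2.19 in AhR-deficient cells, against 2.60 and 1.97 in wild-type cells. Wild-type replicate 1 thus had the largest gap between the ends for both controls, and the part of this RNA measure in the results was not tested.

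Promoter windows of 6 of the 9 members were matched in RefSeq (GRCm38.p6), and the 250 bases before the annotated start are shown for 4 of these genes. Epcam and Ctnnb1 are shown as members with bright probe sets, Cldn1 as the member whose signal varied most between arrays, and Cldn7 as the claudin known to bind Epcam. The windows are chr17:87635729-87635978 (plus strand) for Epcam, chr9:120933150-120933399 (plus strand) for Ctnnb1, chr16:26371840-26372089 (minus strand) for Cldn1 and chr11:69964529-69964778 (plus strand) for Cldn7. Each is written 5′ to 3′, and capitals mark the AhR core motif (GCGTG, or CACGC on the other strand) and the E-box that Snail and Zeb repressors of Cdh1 are known to bind (CACCTG, or CAGGTG on the other strand).
Epcam: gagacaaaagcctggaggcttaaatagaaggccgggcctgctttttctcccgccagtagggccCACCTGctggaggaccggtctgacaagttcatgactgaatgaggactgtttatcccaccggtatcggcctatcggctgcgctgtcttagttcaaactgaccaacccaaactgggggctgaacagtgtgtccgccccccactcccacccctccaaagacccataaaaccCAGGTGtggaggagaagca
Ctnnb1: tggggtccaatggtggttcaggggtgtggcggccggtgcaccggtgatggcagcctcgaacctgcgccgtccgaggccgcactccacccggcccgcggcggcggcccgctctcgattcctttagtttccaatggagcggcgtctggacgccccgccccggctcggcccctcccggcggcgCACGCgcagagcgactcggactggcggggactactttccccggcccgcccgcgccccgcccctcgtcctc
Cldn1: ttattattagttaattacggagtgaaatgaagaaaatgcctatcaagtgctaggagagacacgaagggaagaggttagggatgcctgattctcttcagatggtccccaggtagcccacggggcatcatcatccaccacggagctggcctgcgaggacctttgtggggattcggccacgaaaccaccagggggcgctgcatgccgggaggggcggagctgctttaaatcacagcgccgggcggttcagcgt
Cldn7: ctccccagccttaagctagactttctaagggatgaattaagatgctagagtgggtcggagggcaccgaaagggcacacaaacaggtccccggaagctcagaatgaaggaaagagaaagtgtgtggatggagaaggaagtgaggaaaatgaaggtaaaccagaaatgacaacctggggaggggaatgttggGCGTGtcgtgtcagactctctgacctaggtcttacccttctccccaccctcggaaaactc

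The Epcam window held E-boxes that begin 187 and 19 bases before the start, and no AhR core motif. The Ctnnb1 window held an AhR core motif 70 bases before the start, and that of Cldn7 held one 60 bases before it. A further annotated start of Ctnnb1 has a window that overlaps the first and holds the same site. A further start of Cldn7, downstream of the first, had an AhR core motif 129 bases before it and E-boxes 97 and 57 bases before it. Of the 2 windows of Ctnnd1, which encodes p120-catenin, 1 held an AhR core motif, 163 bases before the start. The windows of Cldn1 and Jup held neither motif. In all, 5 of 9 member windows held the AhR core motif and 2 of 9 held the E-box. Among 32851 windows of the same length, 28.2% held the AhR core motif and 17.2% the E-box. The 5 windows belonged to only 3 of the 6 members, and those of Ctnnb1 share 1 site. Their GC content ran from 51.2% to 74.8%, against a median of 52.4% over all windows, and the shares were not matched for it. No site of one motif overlapped a site of the other in the member windows, and a match of letters does not show binding.

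The comparison of the genotypes asks whether these adhesion and marker transcripts differ when AhR is missing, and no member did so past the threshold. Cd24a was lower in AhR-deficient cells on all 3 of its probe sets, by 1.34-fold to 1.65-fold, without passing adjustment. Cldn1 was higher on all 4 of its probe sets, to very unequal extents and with wide errors. Plakoglobin and p120-catenin had differences near 0. On the brightest probe set, Epcam and alpha-catenin had negative log2 differences of -0.32 and -0.21. Cdh1, Ctnnb1 and Cldn7 had positive ones of 0.47, 0.43 and 0.07. In limma, 0 of 18 member probe sets had an adjusted p under 0.05, where 0.0177% of all probe sets did. At an unadjusted p under 0.05, 1 member probe set, of Cldn1, was higher (3.36% of all probe sets) and 3, all of Cd24a, were lower (2.64% of all). By gene, on the brightest probe set, 0 of 9 members were higher and 1 was lower (3.50% and 3.04% of all genes).

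Both AhR-deficient arrays lay above both wild-type arrays for 5 member probe sets, 3 of them of Cldn1, where the share over all probe sets was 19.0%. They lay below both for another 5, 3 of them of Cd24a, where that share was 16.2%. By gene, on the brightest probe set, 2 of 9 members were higher and 2 lower without overlap (18.8% and 16.6% of all genes). The median log2 difference, AhR-deficient minus wild-type, was 0.04 over the member probe sets and 0.01 over all probe sets, so the middle of the members lay close to that of all probe sets. All differences below are log2 values, AhR-deficient minus wild-type, with limma's standard error (SE) and n = 2 arrays per genotype. Probe sets differ in how strongly they bind, so signals of different genes were not ranked.

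**Figure D1:**
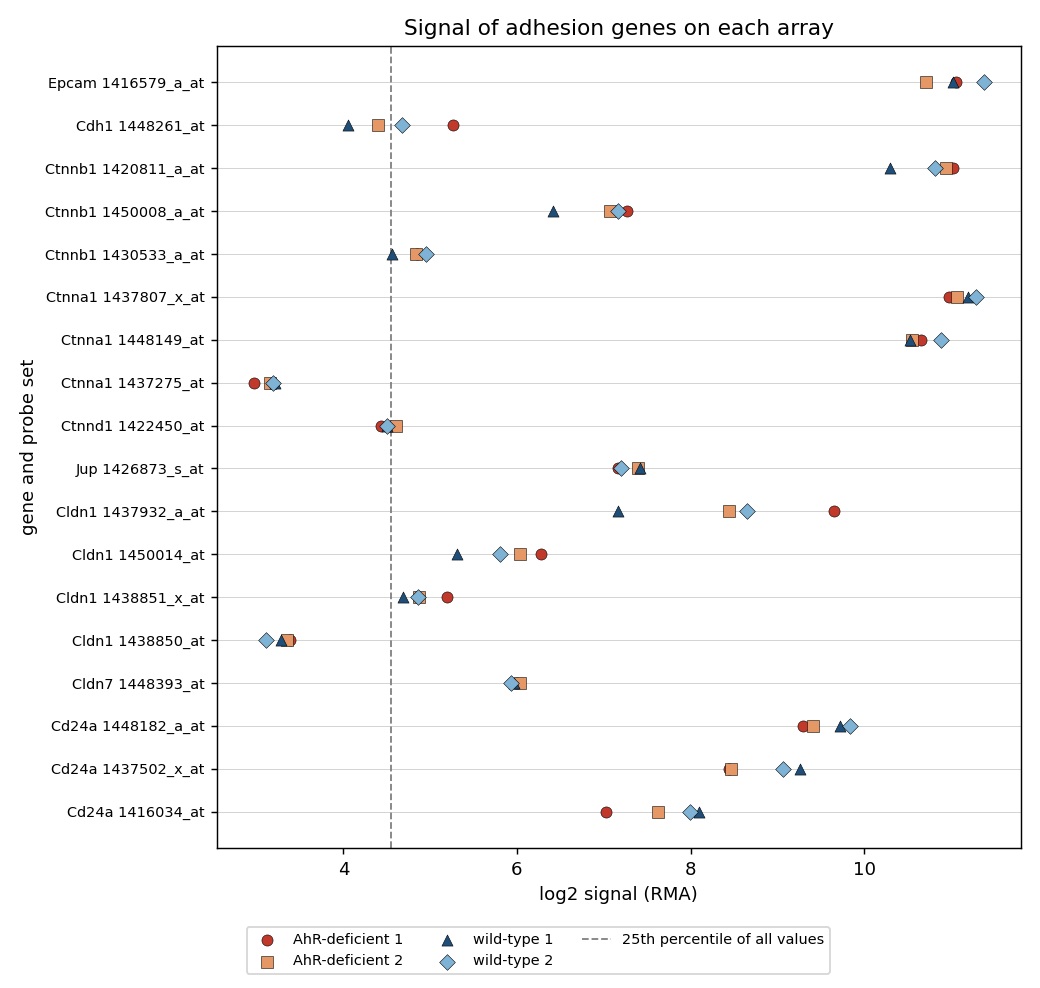
Log2 signal (RMA) of each of the 18 member probe sets (rows) on the 2 AhR-deficient and 2 wild-type arrays (points), with the 25th percentile of all values, 4.55, as a dashed line. Cdh1 and Ctnnd1 lie around that line, wild-type replicate 1 is lowest for all 3 Ctnnb1 probe sets, and the genotypes do not overlap on any of the 3 Cd24a probe sets.

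The single probe set of Cdh1, the gene of E-cadherin, gave a dim signal. A dim signal on 1 probe set does not set the level of the transcript, and no uncultured cells were measured. The probe set had a log2 signal of 5.27 and 4.40 in AhR-deficient cells, against 4.06 and 4.68 in wild-type cells. These values lie on both sides of the 25th percentile of 4.55, and the genotypes overlapped, with AhR-deficient replicate 1 highest and wild-type replicate 1 lowest. The difference was 0.47 (SE 0.37, 95% interval -0.54 to 1.47, limma adjusted p = 0.909). It rested on those outer arrays, being 0.03 with AhR-deficient replicate 1 left out and 0.15 with wild-type replicate 1 left out. Leaving out replicate 2 gave 0.90 (AhR-deficient) and 0.78 (wild-type). At so low a signal a real difference can be understated.

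The catenins join the tail of E-cadherin to actin. Beta-catenin (Ctnnb1), which is also the transcriptional coactivator of the Wnt pathway, was bright on 1 of its 3 probe sets. On 1420811_a_at it had 11.02 and 10.95 in AhR-deficient cells, against 10.29 and 10.82 in wild-type cells. The genotypes did not overlap there, and the wild-type arrays lay further apart than the AhR-deficient ones. The difference of 0.43 (SE 0.19, 95% interval -0.10 to 0.96) did not pass (limma adjusted p = 0.859). It was 0.17 with wild-type replicate 1 left out, and leaving out wild-type replicate 2 gave 0.69.

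On 1450008_a_at, Ctnnb1 had 7.27 and 7.07 in AhR-deficient cells, against 6.42 and 7.16 in wild-type cells. On 1430533_a_at it had 4.85 and 4.83 in AhR-deficient cells, against 4.56 and 4.96 in wild-type cells. The genotypes overlapped on both, with wild-type replicate 1 below the other 3 arrays. Without that array the differences on these probe sets were 0.01 and -0.12, where the fit on all arrays gave 0.38 (SE 0.27) and 0.08 (SE 0.16). Leaving out wild-type replicate 2 gave 0.75 and 0.28 instead. Over all genes with 3 probe sets, 7.47% had their lowest value in wild-type replicate 1 on every probe set, as Ctnnb1 did.

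Alpha-catenin (Ctnna1) couples beta-catenin to actin filaments. Its bright probe set 1437807_x_at had 10.98 and 11.07 in AhR-deficient cells, against 11.19 and 11.29 in wild-type cells. The genotypes did not overlap, but the difference was small, at -0.21 (SE 0.08, 95% interval -0.44 to 0.02, limma adjusted p = 0.857). On the other bright probe set, 1448149_at, the signal was 10.66 and 10.56 in AhR-deficient cells, against 10.53 and 10.89 in wild-type cells, which overlapped, with a difference of -0.10 (SE 0.15) that was 0.08 without wild-type replicate 2 and -0.28 with that array kept and wild-type replicate 1 left out. The third, 1437275_at, had 2.97 and 3.15 in AhR-deficient cells, against 3.21 and 3.19 in wild-type cells. That signal is far below the 25th percentile on every array, so this probe set says little about the transcript.

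p120-catenin (Ctnnd1) binds the membrane-near part of the E-cadherin tail and keeps the cadherin at the surface. Its probe set had 4.43 and 4.61 in AhR-deficient cells, against 4.51 and 4.50 in wild-type cells, all close to the 25th percentile and nearly flat. The difference was 0.01 (SE 0.09, 95% interval -0.24 to 0.27, limma adjusted p = 0.996). Plakoglobin (Jup), the close relative of beta-catenin that serves both adherens junctions and desmosomes, had 7.16 and 7.40 in AhR-deficient cells, against 7.42 and 7.20 in wild-type cells. One array of each genotype was high and the other low, and the difference was -0.03 (SE 0.13, 95% interval -0.38 to 0.33, limma adjusted p = 0.993). Those intervals leave room for log2 differences of up to 0.27 in size for Ctnnd1 and 0.38 for Jup.

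Epcam, a homophilic adhesion molecule of epithelia that in mouse skin dendritic cells marks the Langerhans cell, was bright on all arrays. On the log2 scale it had 11.06 and 10.71 in AhR-deficient cells, against 11.02 and 11.38 in wild-type cells. The genotypes overlapped, since AhR-deficient replicate 1 and wild-type replicate 1 were nearly equal. AhR-deficient replicate 2 was the lowest array and wild-type replicate 2 the highest. The difference was -0.32 (SE 0.19, 95% interval -0.82 to 0.19, limma adjusted p = 0.886), and leaving out replicate 2 of either genotype gave -0.14. Leaving out replicate 1 gave -0.49 (AhR-deficient) or -0.50 (wild-type). The interval runs down to 0.565 of the wild-type signal in linear terms.

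**Figure D2:**
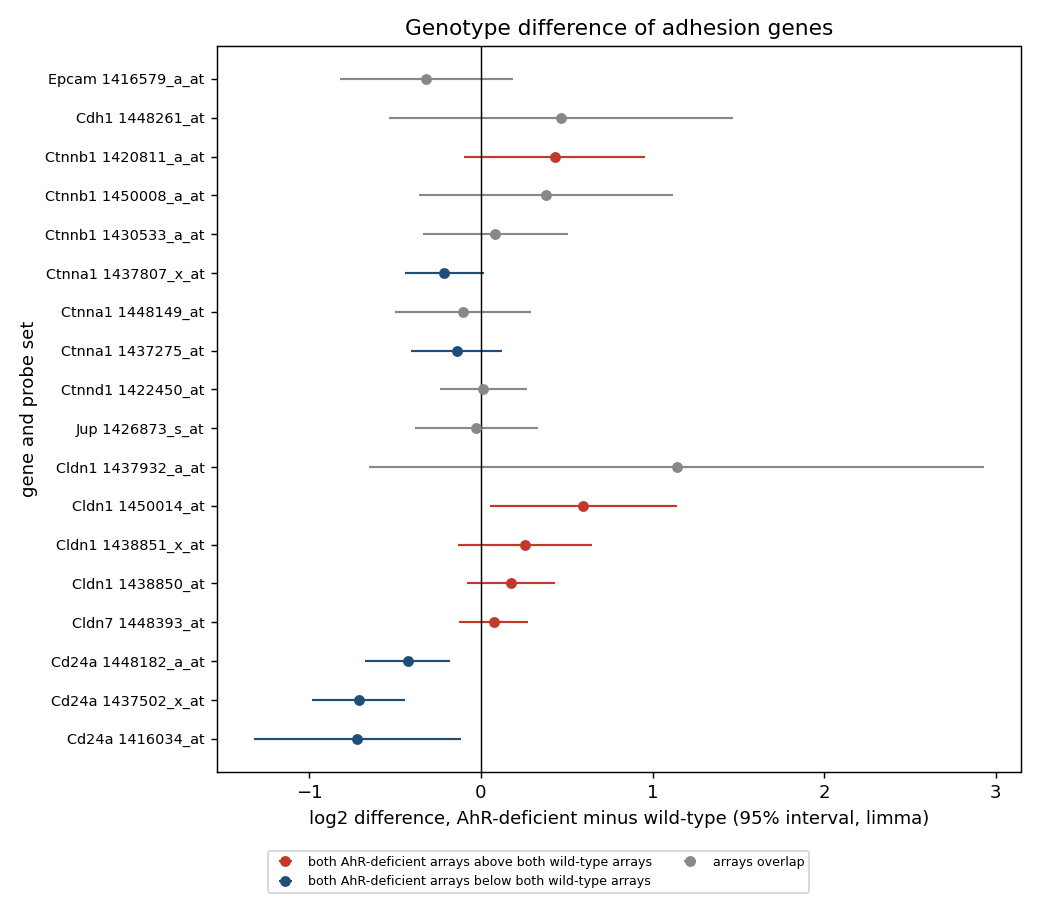
Log2 difference, AhR-deficient minus wild-type, of each of the 18 member probe sets (rows) with its 95% interval from limma on 2 arrays per genotype. Colour gives whether the arrays of the genotypes overlap, and the intervals of the 3 Cd24a probe sets and of Cldn1 probe set 1450014_at do not reach 0, although their adjusted p-values lie between 0.436 and 0.811.

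Claudin 1 (Cldn1), a sealing protein of epidermal tight junctions, varied more between arrays than any other member. On its brightest probe set, 1437932_a_at, it had 9.66 and 8.44 in AhR-deficient cells, against 7.16 and 8.65 in wild-type cells. The signal of AhR-deficient replicate 1 was 2.49 above that of wild-type replicate 1, while replicates 2 of both genotypes lay between them and in the opposite order. The difference was therefore 1.14 with an SE of 0.66 (95% interval -0.65 to 2.93, limma adjusted p = 0.884). Leaving out a wild-type array gave 0.40 (replicate 1) or 1.88 (replicate 2), and leaving out an AhR-deficient array gave 0.53 (replicate 1) or 1.75 (replicate 2).

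Probe set 1450014_at of Cldn1 had 6.27 and 6.03 in AhR-deficient cells, against 5.31 and 5.80 in wild-type cells, without overlap. The difference was 0.60 (SE 0.20, 95% interval 0.05 to 1.14), a 1.51-fold higher signal, with an unadjusted p of 0.0377 and an adjusted p of 0.811 in limma. Leaving out a wild-type array gave 0.35 (replicate 1) or 0.84 (replicate 2). The other 2 probe sets were dimmer. Probe set 1438851_x_at had 5.20 and 4.87 in AhR-deficient cells, against 4.69 and 4.86 in wild-type cells, and 1438850_at had 3.39 and 3.35 in AhR-deficient cells, against 3.28 and 3.11 in wild-type cells, below the 25th percentile throughout. The genotypes did not overlap on either, with differences of 0.26 (SE 0.14) and 0.17 (SE 0.09). On 1438851_x_at leaving out an AhR-deficient array gave 0.10 (replicate 1) or 0.42 (replicate 2). On 1438850_at, leaving out a wild-type array gave 0.26 (replicate 1) or 0.09 (replicate 2).

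Claudin 7 (Cldn7), which forms complexes with Epcam in epithelia, was the steadiest member. It had 6.00 and 6.04 in AhR-deficient cells, against 5.96 and 5.93 in wild-type cells. The arrays did not overlap, yet the difference was only 0.07 (SE 0.07, 95% interval -0.13 to 0.28, limma adjusted p = 0.922). The whole range over 4 arrays was 0.11, so the absence of overlap goes with a very small difference.

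Cd24a, the heat-stable antigen, is a small glycoprotein anchored in the membrane by a lipid and is found on Langerhans cells and on other leukocytes. Its brightest probe set, 1448182_a_at, had 9.29 and 9.41 in AhR-deficient cells, against 9.72 and 9.83 in wild-type cells. On 1437502_x_at it had 8.45 and 8.46 in AhR-deficient cells, against 9.27 and 9.07 in wild-type cells. On 1416034_at it had 7.02 and 7.63 in AhR-deficient cells, against 8.10 and 7.99 in wild-type cells. The genotypes did not overlap on any of these, and the values of each genotype lay close together except for the last AhR-deficient pair.

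The Cd24a differences were -0.43 (SE 0.09), -0.71 (SE 0.10) and -0.72 (SE 0.22) in that order, with 95% intervals of -0.67 to -0.18, -0.98 to -0.44 and -1.32 to -0.12. In linear terms the wild-type signal was 1.34, 1.64 and 1.65 times that of AhR-deficient cells. The unadjusted p-values in limma were 0.00816, 0.00156 and 0.0287, and after adjustment over all probe sets they were 0.624, 0.436 and 0.768, so none passed. Over all genes with 3 probe sets, 1.76% had all 3 lower in AhR-deficient cells without overlap, and 0.252% had a lower signal with an unadjusted p under 0.05 on all 3. Probe sets of a gene share the same 4 RNA samples and are not replicates. Leaving out any of the arrays kept the 3 differences negative, between -1.02 and -0.37.

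In sorted bulk cells, fewer cells of a type and less RNA per cell cannot be told apart, which touches Cd24a and the genes above alike. Beside Cd24a, 4 of 10 measured T cell markers were lower without overlap (16.6% of all genes), 0 were higher (18.8% of all genes) and 6 overlapped. Cd3g, a chain of the T cell receptor complex, had 4.52 and 4.26 in AhR-deficient cells, against 5.80 and 5.50 in wild-type cells. The other 3 were Cd2 at -0.70 (SE 0.12), Cd3d at -0.56 (SE 0.15) and Cd7 at -0.36 (SE 0.12), while Cd3e, which overlapped, was at -0.07 (SE 0.13). The summed linear signal of that list was 431 and 475 in AhR-deficient cells, against 565 and 522 in wild-type cells, and 1 of its genes lay below the 25th percentile on all arrays. Melanocyte markers had 2 of 7 genes lower without overlap and 0 higher, with Kit at 5.57 and 5.67 in AhR-deficient cells, against 6.39 and 6.14 in wild-type cells, and a summed signal of 498 and 490 in AhR-deficient cells, against 507 and 543 in wild-type cells. Sox10, the other one, differed by -0.08 (SE 0.09). Stromal and endothelial markers had 3 of 8 genes higher and 2 lower without overlap, and B cell and granulocyte markers 1 of 7 in each direction. Among these Col1a1, Sparc, Col3a1 and Dcn differed by -0.21, 0.20, 0.06 and -0.04, and Cd79b and Mpo by 0.20 and -0.06. None of these genes passed in limma, and the part of other cell types in the Cd24a result was not tested.

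Both MHC class II chains of the marker list, whose surface product was used to sort the cells, and the invariant chain were higher in AhR-deficient cells without overlap and without passing adjustment. H2-Aa, an MHC class II chain, had 12.47 and 12.32 in AhR-deficient cells, against 11.25 and 10.92 in wild-type cells (1.31, SE 0.14, limma adjusted p = 0.306). Cd74, the invariant chain that escorts MHC class II, had 11.25 and 11.16 in AhR-deficient cells, against 10.15 and 10.39 in wild-type cells (0.93, SE 0.12, adjusted p = 0.374). H2-Ab1, another MHC class II chain, had 10.37 and 9.64 in AhR-deficient cells, against 8.87 and 8.66 in wild-type cells (1.24, SE 0.27, adjusted p = 0.624). Tgfbr2, a receptor for TGF-beta, which Langerhans cells need, was lower, with 7.15 and 6.72 in AhR-deficient cells, against 7.61 and 7.61 in wild-type cells (-0.68, SE 0.17, adjusted p = 0.682). The only other Langerhans and dendritic cell marker lower without overlap was Csf1r, a growth factor receptor, at -1.05 (SE 0.26, adjusted p = 0.705). In all, 4 of 14 markers of that list were higher (18.8% of all genes) and 2 lower (16.6% of all genes) without overlap. The summed signal of the list was 22197 and 21371 in AhR-deficient cells, against 16270 and 20343 in wild-type cells. The part of the MHC class II gate in the Cd24a result was not tested.

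Cdh1 and Cldn1 are also keratinocyte genes, and keratinocyte markers shared part of their pattern over the arrays. Of 17 measured markers, 13 had their highest value in AhR-deficient replicate 1 (31.7% of all genes), as Cdh1 and all 4 Cldn1 probe sets did. In 10 the lowest value was in wild-type replicate 1 (26.3% of all genes), as for Cdh1 and 3 of the 4 Cldn1 probe sets. The mean log2 signal of the list was 5.44 and 5.04 in AhR-deficient cells, against 4.95 and 4.98 in wild-type cells. The wild-type values of the list were thus close together. Cdh1 had 4.06 and 4.68 on those arrays, and the brightest Cldn1 probe set had 7.16 and 8.65. Cdh1 and that Cldn1 probe set had wild-type replicate 2 above AhR-deficient replicate 2, unlike the list mean. The other Cldn1 probe sets had AhR-deficient replicate 2 above, as the list mean did, though narrowly on 1438851_x_at. The summed linear signal of the list was 1091 and 649 in AhR-deficient cells, against 606 and 629 in wild-type cells. Lor weighed most in the sum of AhR-deficient replicate 1. It had 8.53 and 6.72 in AhR-deficient cells, against 6.72 and 6.91 in wild-type cells, which overlapped. Without overlap, 7 of 17 were higher (18.8% of all genes) and 1 was lower (16.6% of all genes), and 5 lay below the 25th percentile on all arrays, namely Krt15, Krt17, Sfn, Col17a1 and Ivl.

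Among the keratinocyte genes, Krt14, a keratin of the basal layer, had 5.55 and 4.96 in AhR-deficient cells, against 4.60 and 4.76 in wild-type cells (0.57, SE 0.22). Krt6a, a keratin of activated keratinocytes, had 6.77 and 5.84 in AhR-deficient cells, against 5.54 and 5.55 in wild-type cells (0.76, SE 0.33). AhR-deficient replicate 1 stood above the other 3 arrays in both. Krt5 and Lgals7 had smaller differences of 0.27 (SE 0.11) and 0.20 (SE 0.09). None of these passed (limma adjusted p from 0.849 to 0.861), and the part of keratinocyte RNA in the Cdh1 and Cldn1 values was not tested. Without AhR-deficient replicate 1 the difference was 0.03 for Cdh1 and 0.53 for the brightest Cldn1 probe set, as given above. Without wild-type replicate 1 these differences were 0.15 and 0.40, and leaving out replicate 2 of either genotype raised both.

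**Figure D3:**
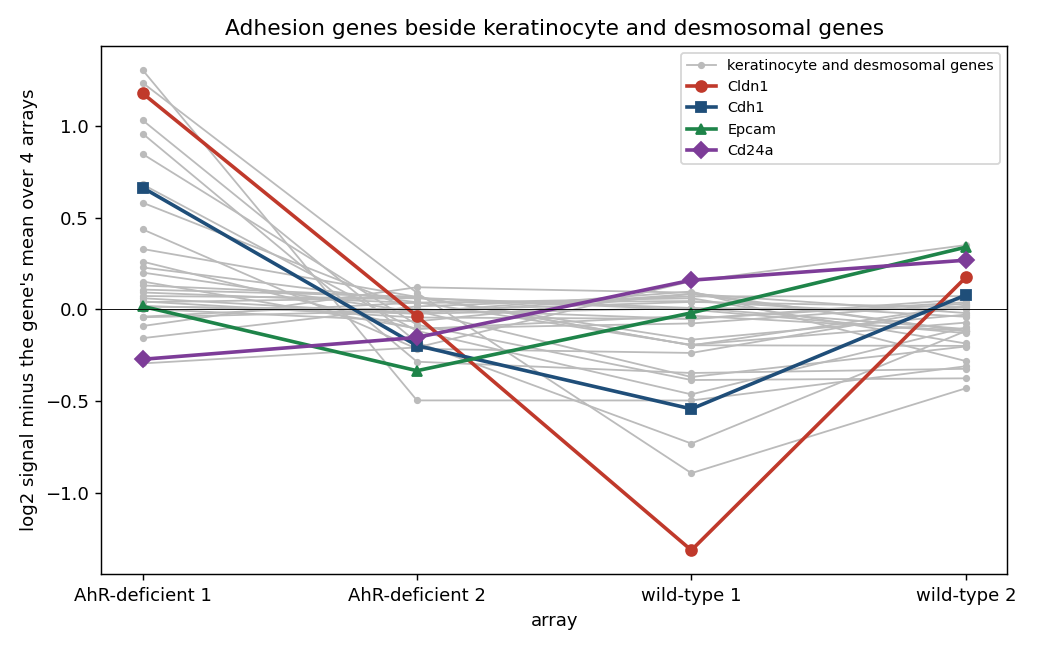
Log2 signal minus the gene's mean over the 4 arrays (vertical axis) on each array (horizontal axis), for the brightest probe sets of Cldn1, Cdh1, Epcam and Cd24a (coloured) and for 28 keratinocyte and desmosomal genes (grey), with lines joining the values of a gene. Cldn1 and Cdh1 are highest in AhR-deficient replicate 1 and lowest in wild-type replicate 1, while Epcam and Cd24a are highest in wild-type replicate 2.

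Desmosomal proteins, which share plakoglobin with the adherens junction, did not differ past the threshold. Of 11 measured genes, 3 were higher and 2 lower without overlap, where 18.8% and 16.6% of all genes were, and the median difference was 0.01 as over all genes. An unadjusted p under 0.05 in limma was seen for 2 above and 1 below wild-type (3.50% and 3.04% of all genes). Dsp, the plakin that ties desmosomes to keratin, had 6.60 and 5.45 in AhR-deficient cells, against 4.47 and 4.93 in wild-type cells (difference 1.32, SE 0.43, limma adjusted p = 0.795). Pkp1, a plakophilin of the epidermis, had 8.10 and 7.84 in AhR-deficient cells, against 7.57 and 7.57 in wild-type cells (0.40, SE 0.12). Pkp2, another plakophilin, went the other way, with 6.10 and 6.19 in AhR-deficient cells, against 6.55 and 6.74 in wild-type cells (-0.50, SE 0.10, adjusted p = 0.606). Dsc3, a desmosomal cadherin, differed by -0.14 (SE 0.09).

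Other cadherins and adherens junction proteins, 22 measured, had 6 genes higher and 6 lower without overlap (18.8% and 16.6% of all genes) and a median difference of 0.04, and 0 passed in limma (0.0323% of all genes did). At an unadjusted p under 0.05, 3 were above and 0 below wild-type (3.50% and 3.04% of all genes). Cadm1, an immunoglobulin-type adhesion molecule, had 7.41 and 7.72 in AhR-deficient cells, against 6.68 and 7.07 in wild-type cells (0.69, SE 0.18, adjusted p = 0.710). Nectin2, a partner of the cadherin junction, had 6.60 and 6.23 in AhR-deficient cells, against 6.00 and 5.77 in wild-type cells (0.53, SE 0.16, adjusted p = 0.768). Both genes were higher in each AhR-deficient array than in either wild-type array. Ajuba, a LIM protein that binds alpha-catenin, differed by 0.26 (SE 0.08), and Cdh13, a cadherin without a cytoplasmic tail, by -0.19 (SE 0.07).

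Other claudins and tight junction proteins, 23 measured, had 5 genes higher and 3 lower without overlap, where 18.8% and 16.6% of all genes were, and a median difference of 0.04. None passed in limma, and an unadjusted p under 0.05 was seen for 1 gene in each direction (3.50% of all genes above and 3.04% below). Tjp1, the scaffold ZO-1 that ties claudins to actin, had 7.72 and 7.70 in AhR-deficient cells, against 8.20 and 7.97 in wild-type cells (-0.37, SE 0.11, adjusted p = 0.732). The Cldn1 differences went the other way, and those of neither gene passed adjustment. Cldn4, an epithelial claudin, had 7.08 and 6.45 in AhR-deficient cells, against 6.43 and 6.31 in wild-type cells (0.40, SE 0.23), with AhR-deficient replicate 1 highest as for Cldn1. Cldn14 and Cldn23 differed by 0.21 (SE 0.07) and 0.20 (SE 0.10).

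Repressors of E-cadherin and the enzymes that shed it, 18 measured, had 5 genes higher (18.8% of all genes) and 3 lower (16.6%) without overlap, a median difference of 0.00, and 0 at an unadjusted p under 0.05 in either direction (3.50% and 3.04% of all genes). Adam10, the protease known to cleave the outer part of E-cadherin, had 9.69 and 9.47 in AhR-deficient cells, against 9.19 and 9.39 in wild-type cells (0.29, SE 0.13, adjusted p = 0.859). Adam8, another membrane protease, differed by 0.36 (SE 0.18), Mmp7, a secreted protease, by 0.20 (SE 0.10) and Tcf4, an E-box binding factor, by -0.25 (SE 0.14).

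Genes of beta-catenin turnover and its transcription partners, 19 measured, had 5 higher and 1 lower without overlap, beside 18.8% and 16.6% of all genes, and a median difference of -0.01. In limma 0 passed, and an unadjusted p under 0.05 was seen for 2 above and 0 below wild-type, beside 3.50% and 3.04% of all genes. Ccnd1, a cyclin and known beta-catenin target, had 6.78 and 6.47 in AhR-deficient cells, against 6.16 and 6.18 in wild-type cells (0.45, SE 0.13, adjusted p = 0.732). Gsk3b, the kinase that marks beta-catenin for destruction, had 6.68 and 6.55 in AhR-deficient cells, against 6.35 and 6.39 in wild-type cells (0.24, SE 0.09). Both a target and an inhibitor of beta-catenin were thus higher in each AhR-deficient array. Ctnnbip1, an inhibitor of beta-catenin, and Dvl2, an activator of the pathway, each differed by 0.19 (SE 0.08 and 0.09).

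Partners of Epcam, E-cadherin and Cd24a, 11 measured, had 4 genes higher and 4 lower without overlap, set against 18.8% and 16.6% of all genes, and a median difference of -0.14. None passed in limma, and an unadjusted p under 0.05 was seen for 0 above and 2 below wild-type, set against 3.50% and 3.04% of all genes. Itgae, the integrin chain by which T cells hold E-cadherin, had 6.49 and 6.39 in AhR-deficient cells, against 6.74 and 6.82 in wild-type cells (-0.34, SE 0.09, adjusted p = 0.706). Spint1, a protease inhibitor of epithelia, had 5.37 and 5.37 in AhR-deficient cells, against 5.74 and 6.15 in wild-type cells (-0.58, SE 0.16, adjusted p = 0.710). Spint2, a relative of Spint1, was slightly higher instead, by 0.17 (SE 0.08), and Cd81, a tetraspanin, by 0.24 (SE 0.09).

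Among the 7263 (Epcam and Cd24a) or 7264 (Cdh1) other genes above the median signal, those whose centred profile lay nearest to a member's over the 4 arrays were listed as a description. For Epcam they were Slc1a4, Ppa1 and Cdc123, at a root mean square distance of 0.02, 0.04 and 0.04 log2 units. For Cdh1 they were Polr3c, Pcyt1a and Clec4n, at 0.02, 0.03 and 0.04. For Cd24a they were Bzw1, Ppp3r1 and Klhdc2, at 0.03, 0.04 and 0.04.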

How the data were processed

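The values of 4 arrays were used as deposited: log2 expression values per probe set, made by the authors with affy and RMA per the submitters' processing notes (background correction, quantile normalisation and probe summary), with versions and build not given in the sources used here. Per the labels' protocols, RNA was amplified, biotinylated and hybridised to Affymetrix MOE430A arrays. Array medians lay between 5.60 and 5.63, and the number of arrays limits precision.

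Of 22690 probe sets, 64 controls were left out of testing. Genes were named from the platform annotation (1 symbol for 20380 probe sets), and RefSeq changed 0 symbols. The test was limma 3.58.1 under R 4.3.3 (lmFit, eBayes, two-sided, 2 residual and 2.27 prior degrees of freedom, no replicate block), adjusted by Benjamini-Hochberg over 22626 probe sets and called at 0.05. Lists used each gene's probe set with the highest mean. The steps were tested on simulated data. All member probe sets are named, and from each list up to 4 genes with the smallest p among those without overlap. Ahrr, Cd207, Csf1r, Cd3e and Lor fall outside that rule and were chosen after their values were seen. Members and lists were chosen with earlier results of these data known. Alternatives were a replicate block, eBayes settings, a filter on dim probe sets, rescaling, 16 added before log2 and array weights. Others left out each array in turn, or probe sets ending in _s_at, _x_at or _a_at. Those endings include all probe sets of Epcam, Ctnnb1 and Jup.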

Additional observations from a re-analysis of the deposited data

How the results depend on the processing

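No member probe set passed under any of the 14 alternatives, where the smallest adjusted p was 0.362 (Cd24a, without wild-type replicate 2). The sign of 14 of 18 member differences was the same without each array in turn. The other 4 were small and changed sign: Jup (-0.15 to 0.092), Ctnnd1 (-0.072 to 0.099), Ctnnb1 on 1430533_a_at (-0.12 to 0.28) and Ctnna1 on 1448149_at (-0.28 to 0.076). Jup was 0.092 with AhR-deficient replicate 1 left out and 0.082 with wild-type replicate 1 left out. No other alternative changed a sign. The mean over its probe sets put Cd24a at -0.62, against -0.43 on the brightest one. Over all probe sets, 4 calls became 8 with a trend in eBayes, 2 without the _s_at, _x_at and _a_at probe sets, 0 with 16 added, and 0 with any array left out; the cause was not tested. With the replicate block 0 of the 18 member probe sets and 0 of all probe sets passed. Same-numbered replicates deviated in opposite ways (r = -0.31 across probe sets), so the numbers were not taken as pairs, and a crossed replicate block, chosen after seeing the data, also gave 0 calls. Rescaling shifted the median difference of all probe sets by at most 0.01. The dim filter tested 15 and the filter on probe set endings 8 of the 18. Cdh1 and the brightest Cldn1 probe set had the widest 95% intervals, and signals near the 25th percentile limit Cdh1 and Ctnnd1.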
